A study of Mus musculus with 40 samples.

Results

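Genes of foreign-compound (xenobiotic) and tyrosine metabolism, Cyp2b10, Hpd, Pon1, Cyp2e1, Por, Nr1i3, Ephx1 and Gstt1, were followed in mouse brown adipose tissue. These 8 are among the 52636 genes in a deposited table of RNA-seq read counts and were found there by mapping Ensembl identifiers to symbols. They were chosen from measured values: Cyp2b10 and Hpd because they differed between the antibodies under thyroid hormone, and Pon1 because it was low with hormone. Those contrasts (antibody under hormone, hormone in either antibody group, and their interaction) are therefore described for the 8 genes without a test. All 8 genes passed the filter on low counts. A further 101 genes of the same kinds of metabolism were listed for context, and 76 of them passed the filter.

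The 40 male C57BL/6 mice, bought from a vendor, fell into 8 groups of 5. Control mice received a single intraperitoneal dose of 40 mg/kg of an isotype antibody raised to ragweed, a plant allergen. Jag mice received antibodies that block the Notch ligands Jag1 and Jag2, at 20 mg/kg each. Tissue was taken at 15 h, 5 d or 7 d. Other control and Jag mice, also taken at 7 d, had in addition daily injections of thyroxine (T4, 1 ug/g) and triiodothyronine (T3, 0.05 ug/g) from day 2. Age is given as 10 to 12 weeks in the design text and 10 to 14 weeks in the labels. No group went without an antibody, all antibody acted in the whole animal, and no genetic change is named in any group. Each library was taken as 1 mouse, from the numbers in the sample titles: 1 to 5 for control mice and 6 to 10 for Jag mice.

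Nr1i3 encodes the constitutive androstane receptor (CAR), a nuclear receptor studied chiefly in liver, where drug-like compounds activate it and Cyp2b10 is its classical target. Cytochrome P450 enzymes such as Cyp2b10 and Cyp2e1 oxidise lipophilic compounds with electrons that Por, the P450 oxidoreductase, takes from NADPH. Epoxide hydrolases such as Ephx1 and glutathione transferases such as Gstt1 act on the products, Pon1 (paraoxonase) hydrolyses lactones and organophosphates and is best known as a secreted liver protein, and Hpd (4-hydroxyphenylpyruvate dioxygenase) acts in tyrosine breakdown.

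The sequence just upstream of the start of Cyp2b10, Hpd and Pon1, the genes the choice rests on, is shown here from the RefSeq promoter table (GRCm38.p6), 5′ to 3′ on the gene's own strand.
Cyp2b10 chr7:25897408-25897619 (+): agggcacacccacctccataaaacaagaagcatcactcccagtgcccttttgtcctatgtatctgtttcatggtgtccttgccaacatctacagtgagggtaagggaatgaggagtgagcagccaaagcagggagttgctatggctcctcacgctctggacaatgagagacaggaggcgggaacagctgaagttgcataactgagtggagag
Hpd chr5:123182728-123182973 (−): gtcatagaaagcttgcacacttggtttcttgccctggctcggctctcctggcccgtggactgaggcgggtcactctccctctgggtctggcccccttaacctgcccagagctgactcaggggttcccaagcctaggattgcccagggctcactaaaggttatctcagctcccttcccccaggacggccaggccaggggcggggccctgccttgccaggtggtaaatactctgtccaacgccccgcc
Pon1 chr6:5193947-5194196 (−): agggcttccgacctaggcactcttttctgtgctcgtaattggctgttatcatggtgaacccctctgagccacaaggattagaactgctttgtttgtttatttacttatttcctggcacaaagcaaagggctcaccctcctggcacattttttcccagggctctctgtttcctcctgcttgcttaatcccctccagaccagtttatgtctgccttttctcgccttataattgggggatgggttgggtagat
Cyp2b10 lies on chromosome 7 from 25897620 to 25926624 on the plus strand, Hpd on chromosome 5 from 123171807 to 123182727 on the minus strand, and Pon1 on chromosome 6 from 5168090 to 5193946 on the minus strand (GENCODE, GRCm38). The printed bases hold no exon of another annotated gene. Nuclear receptors of this kind bind copies of the hexamer AGGTCA. That hexamer, searched on both strands of the 300-base promoter window, was in none of the 8 genes' windows and in 16.3% of 32851 windows of that length. Direct repeats of it, which hold the hexamer by construction, were in 0.0396% of windows with 1 base between the copies and 0.0152% with 4 bases, and in none of the 8. Only exact copies inside the window were searched, so inexact copies and sites farther from the start could not be seen. With 8 windows, nothing is read from the absence of the hexamer. The motif TATAAA was in 13.6% of all windows and in those of Cyp2e1, at -31 to -26 from the start site, and Ephx1, at -214 to -209.

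Library totals ran from 12217623 to 36511893 counts. The brown fat marker Ucp1 was at 554 to 21295 CPM (counts scaled to library size) in all mice. The hormone-responsive gene Hr rose with hormone by 2.28 ± 0.30 (log2, SE) in control mice and 1.92 ± 0.29 in Jag mice (edgeR, adjusted p = 1.9e-06 and 5.83e-05). Klf9, also read as a check, rose by 1.39 ± 0.34 and 0.93 ± 0.33 (edgeR, adjusted p = 0.00142 and 0.0694). The other checked genes, Thrsp and Me1, had lower estimates with hormone. Thrsp differed by -1.46 ± 0.53 and -0.52 ± 0.52 (adjusted p = 0.0261 and 0.544), and Me1 by -0.91 ± 0.47 and -0.61 ± 0.47 (adjusted p = 0.113 and 0.405). Control 15 h mice 2 and 3 stood apart: their mean log2 CPM over 10 myeloid markers was 8.61 and 6.67, against 1.15 to 5.07 in the other 38 mice, and over 10 brown adipocyte markers 6.90 and 7.63, against 8.09 to 9.95. Muscle markers varied widely, and at 5 d their score was 9.90 ± 3.31 (SD) in control mice and -0.14 ± 1.95 in Jag mice (exact two-sided permutation test, p = 0.00794, adjusted p = 0.0572 over 36 tests).

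Several of the 8 genes are best known from liver, so 12 liver markers were read in the same libraries. Their summed level ran from 2.43 to 137 CPM in control mice at 5 d (median 5.54) and from 7.06 to 72.3 CPM in hormone-treated control mice (median 11.6), and it stayed at or below 28.7 CPM in the other 6 groups. Albumin (Alb) reached 38.4 CPM at most. Fibrinogen genes were at 0 in 26 mice (Fga, Fgg) and 29 mice (Fgb). Cyp2b10 reached 836 CPM in hormone-treated Jag mouse 6, in a group whose summed liver markers were at 11.6 to 28.7 CPM. In 5 mice the liver score (mean log2 CPM of the 12) was above -1: control 5 d mouse 2, control 7 d mouse 5, hormone-treated control mice 1 and 4, and hormone-treated Jag mouse 9. Where leaving out these 5 mice ended a call, that is given beside the gene. None of the 5 was a 15 h mouse or a Jag mouse without hormone, so at 15 h only the fit over all genes changed.

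**Figure D1:**
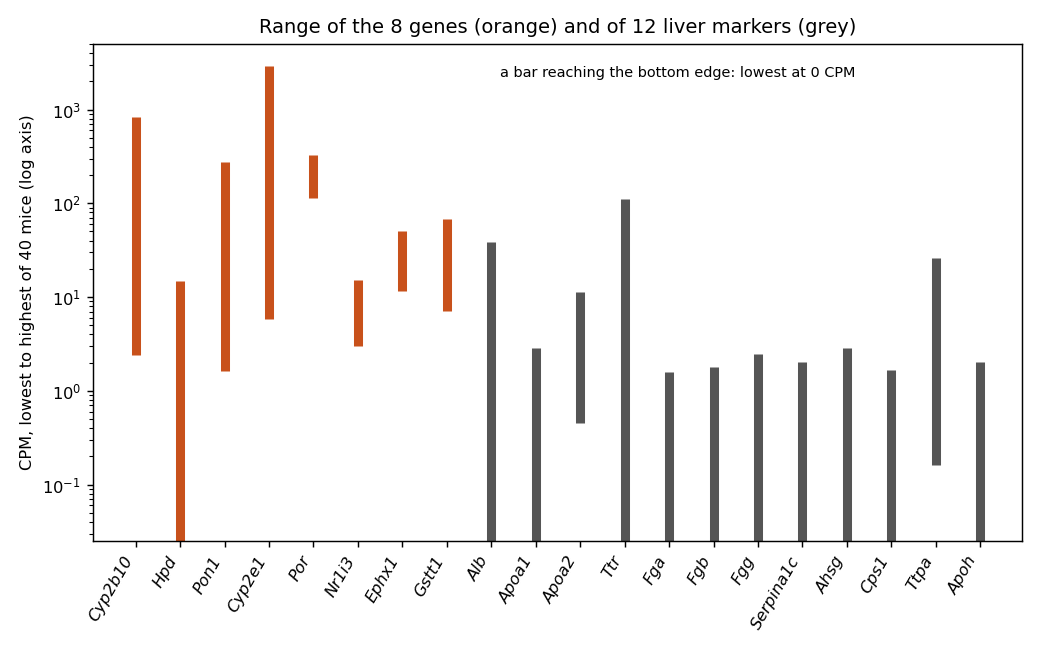
Lowest to highest CPM over the 40 mice (log axis) for the 8 genes in orange and 12 liver markers in grey. The highest Cyp2b10 value is 836 CPM, and the highest albumin value is 38.4 CPM.

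Per kilobase of exon, the 8 genes spanned a wide range of levels. Cyp2e1 was highest, with a median over the 40 mice of 98.3 CPM per kb, followed by Por at 49.0, Cyp2b10 at 23.8, Gstt1 at 17.7, Pon1 at 12.4 and Ephx1 at 11.8. Nr1i3 at 1.42 and Hpd at 1.38 CPM per kb were the lowest. Ranges of neighbours in this order overlapped, except that Nr1i3 (0.672 to 3.44) lay below Ephx1 (5.88 to 25.9). The genes also differed in spread between mice of a group: the pooled SD of log2 CPM was 1.60 for Cyp2e1, 0.91 for Cyp2b10, 0.86 for Hpd, 0.85 for Pon1 and 0.29 for Por.

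**Figure D2:**
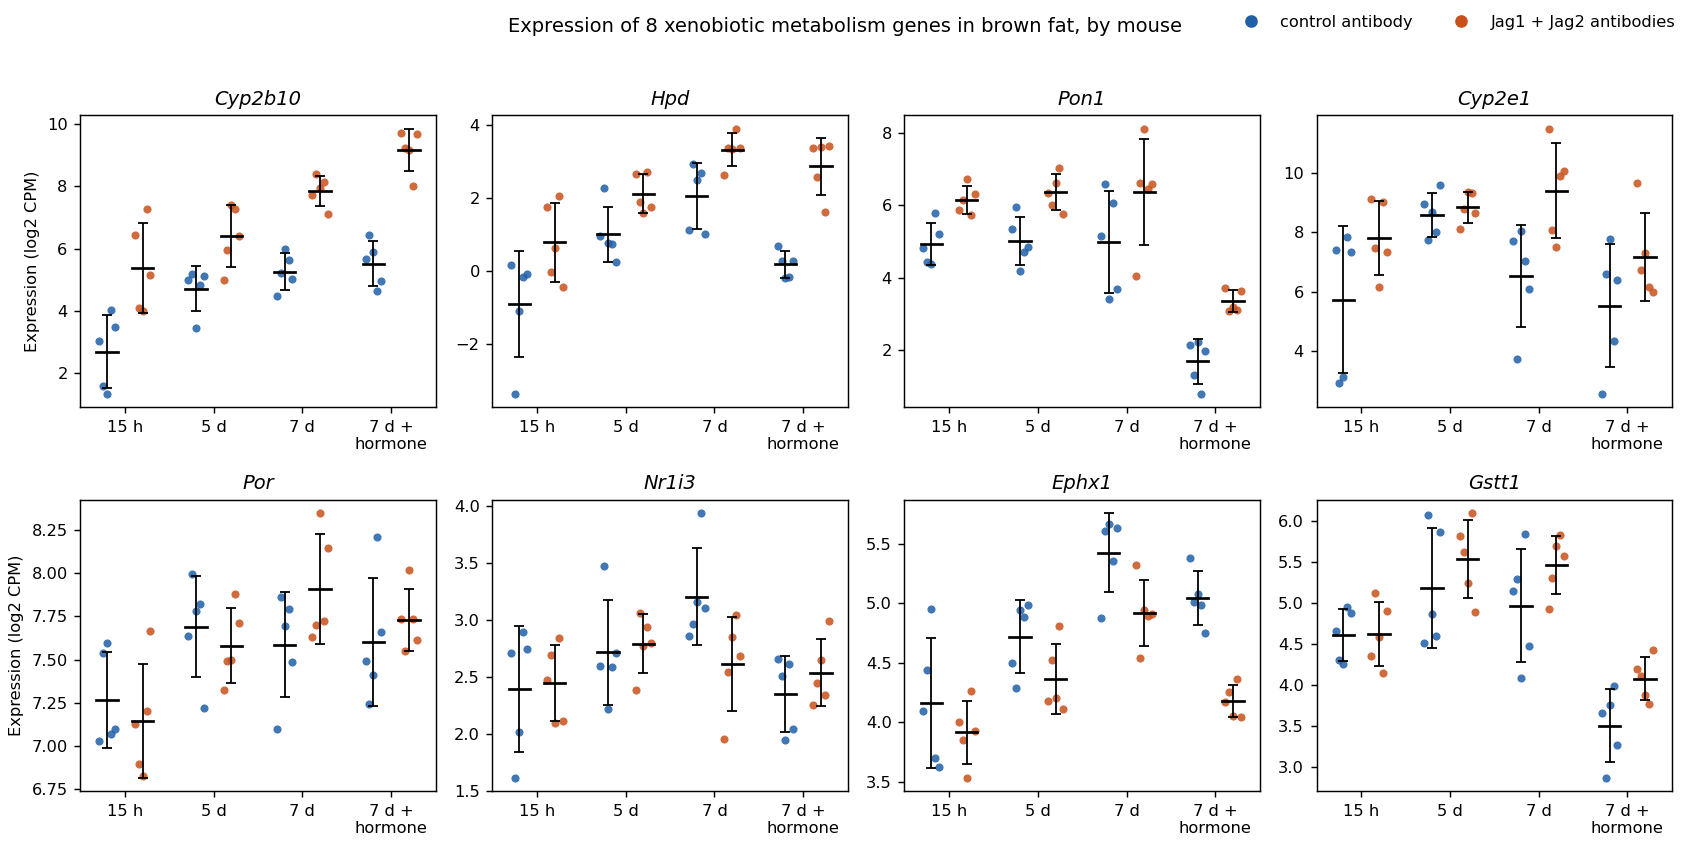
Expression (log2 CPM) of the 8 genes in each mouse, with mean and SD bars, by time and hormone; blue is control antibody and orange Jag antibodies. Cyp2b10 has the highest group mean, 9.17, in hormone-treated Jag mice and the lowest, 2.69, in control mice at 15 h.

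Antibody comparisons without hormone asked whether blocking Jag1 and Jag2 changed these genes at 15 h, 5 d and 7 d. Cyp2b10 was the only 1 of the 8 that passed the test, and it rose at all 3 times. At 15 h, 1 of 8 genes was called higher and 0 lower, where 0.234% of the 17079 tested genes were called higher and 0.902% lower. At 5 d the counts were again 1 higher and 0 lower, beside 2.09% and 5.93% of all genes, and at 7 d 1 higher and 0 lower, beside 1.21% and 1.29%. At 7 d, Cyp2b10 was also the only member whose groups did not overlap, as was so for 3.31% of all tested genes. The median log2 fold change of the 8 genes was 0.60, 0.22 and 0.78 at the 3 times, against -0.04, 0.04 and 0.05 over all tested genes.

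Cyp2b10 in control mice at 15 h was at 8.06, 2.88, 2.43, 16.1 and 11.1 CPM. In Jag mice at 15 h it was at 86.6, 16.9, 15.7, 155 and 35.8 CPM. Only the highest control mouse reached into the Jag range. The difference was 2.93 ± 0.57 (log2 fold change ± SE, edgeR, adjusted p = 0.0193), a 7.63-fold higher level. The call was not stable: it was lost without control mouse 2 or 3 or Jag mouse 9 (2.72, 2.70 and 2.26, adjusted p = 0.0753, 0.0679 and 0.0807). The adjustment runs over all genes, of which 6 to 753 were called at 15 h with single mice left out. Without both of the control mice that stood apart the difference was 2.40 (adjusted p = 0.276). The brown adipocyte score at 15 h was 8.99 in Jag and 8.11 in control mice (exact permutation p = 0.0794), and with it in the model the difference was 1.73 (adjusted p = 0.218).

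At 5 d, Cyp2b10 in control mice was at 31.8, 36.6, 10.8, 28.5 and 34.5 CPM. Jag mice were at 32.0, 61.4, 169, 155 and 85.3 CPM. Jag mouse 6 lay within the control range and the other 4 above it. The difference was 1.83 ± 0.54 (adjusted p = 0.0338). It was not called without control mouse 3, 4 or 5 or Jag mouse 8, 9 or 10 (adjusted p from 0.0531 to 0.105), nor with the muscle score in the model, where it was 1.94 (adjusted p = 0.170). The muscle score was 5.10 to 13.7 in these control mice and -2.69 to 2.20 in these Jag mice. Without overlap, that model can hardly separate muscle from antibody. The Cyp2b10 difference was 1.36 (adjusted p = 0.0585) with the brown adipocyte score in the model. The liver score was also lower in Jag mice at 5 d (-2.49 against -1.30), and without the 5 mice high in liver markers the difference was 1.90 (adjusted p = 0.0462).

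At 7 d, Cyp2b10 in control mice was at 22, 36.7, 63.4, 49.6 and 32.3 CPM. Jag mice stood at 212, 334, 246, 279 and 139 CPM, every mouse above every control mouse. The difference was 2.57 ± 0.56 (adjusted p = 0.0102), a 5.93-fold higher level, and it was called with each of the 10 mice left out in turn (2.40 to 2.79) and without the 5 mice high in liver markers (2.49, adjusted p = 0.0384). The antibody difference at 7 d was not called different from that at 15 h (-0.36 ± 0.75, adjusted p = 0.832), nor that at 5 d from that at 15 h (-1.11 ± 0.75, adjusted p = 0.512). None of the 8 genes was called in either test by edgeR or DESeq2, and none had an unadjusted p under 0.05. Among all genes, 1.31% were called in the 7 d test and 0.0995% in the 5 d test. In bulk tissue, fewer cells of a type and less RNA per cell cannot be told apart.

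**Figure D3:**
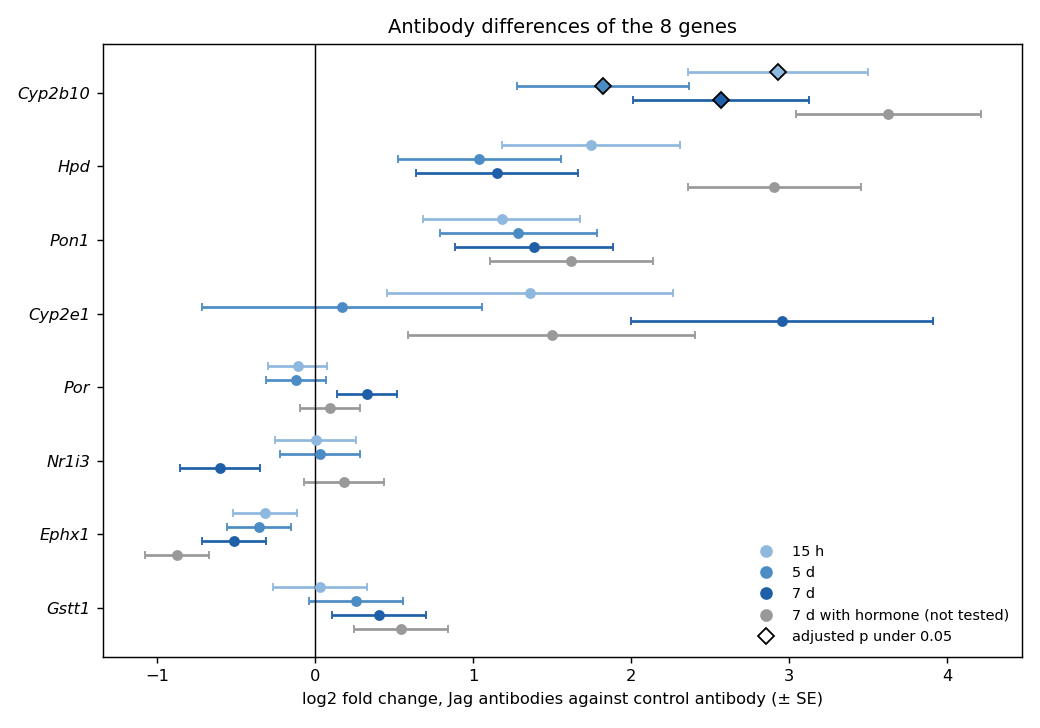
Log2 fold change (Jag against control antibody) with SE for the 8 genes at 15 h, 5 d, 7 d and 7 d with hormone; diamonds mark an adjusted p under 0.05 and grey points were not tested. Only Cyp2b10, at 2.93, 1.83 and 2.57, carries diamonds.

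Under hormone, the contrast that picked the gene, Cyp2b10 was at 50.8, 85.6, 58.7, 24.7 and 31.0 CPM in control mice. In Jag mice it was at 836, 603, 579.7, 259 and 826 CPM. Of these, 4 were above every other mouse of the series, and mouse 9 (259 CPM) lay within the range of Jag mice without hormone. The groups did not overlap and the difference was 3.63 ± 0.58. Hormone against none gave 0.30 ± 0.53 in control mice and 1.36 ± 0.54 in Jag mice, with overlapping groups in both, and the interaction was 1.06 ± 0.75. With the brown adipocyte score in the model, the hormone difference was 1.75 in control and 2.24 in Jag mice, and the interaction was 0.48.

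Cyp2b10 has close paralogs, which matters for 50 bp reads: 8.7% of its 50-base windows were shared with Cyp2b9, Cyp2b13, Cyp2b19, Cyp2b23 or Gm45225. The highest count of Cyp2b9 in any mouse was 1, of Cyp2b13 4, of Cyp2b19 1 and of Cyp2b23 2, while Cyp2b10 had 40 to 15337 counts. None of these 4 paralogs passed the filter.

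Cyp2e1, a P450 that oxidises small solvents and ethanol, was the most variable of the 8. Its antibody difference was 1.36 ± 0.90 at 15 h, 0.17 ± 0.89 at 5 d and 2.96 ± 0.96 at 7 d (adjusted p = 0.653, 0.933 and 0.0868). At 7 d, control mice were at 211, 13.3, 266, 131 and 68.2 CPM. Jag mice were at 2879, 268, 182, 950.2 and 1077 CPM, so that 4 of 5 were above the highest control mouse. DESeq2 called this difference (2.96, adjusted p = 0.0106) and edgeR did not. At 15 h, control mice 2 and 3 held 7.58 and 8.70 CPM and the other 3 held 163 to 227 CPM. Within groups, Cyp2e1 correlated with the muscle score (r = 0.55 over 40 mice), and 3.87% of its 50-base windows were shared with other genes.

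Por, the electron donor, differed little between antibodies or with hormone, but from 15 h to 7 d it rose in Jag mice (0.76 ± 0.19, edgeR, adjusted p = 0.00681). Its lowest and highest values over all mice were 6.83 and 8.35 log2 CPM, and its antibody differences were -0.11 ± 0.19, -0.12 ± 0.19 and 0.33 ± 0.19 at 15 h, 5 d and 7 d (adjusted p = 0.935, 0.753 and 0.327). Hormone gave 0.03 ± 0.19 in control mice and -0.20 ± 0.19 in Jag mice.

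Nr1i3, the receptor, stayed low. Group means ran from 2.35 ± 0.33 log2 CPM (SD, n = 5) in hormone-treated control mice to 3.20 ± 0.42 in control mice at 7 d, and counts per mouse from 64 to 258. The antibody difference was 0.00 ± 0.25 at 15 h, 0.03 ± 0.25 at 5 d and -0.60 ± 0.25 at 7 d (adjusted p = 0.999, 0.957 and 0.178). Hormone gave -0.88 ± 0.26 in control mice, whose groups did not overlap, and -0.10 ± 0.25 in Jag mice. These became -0.14 and 0.39 with the brown adipocyte score in the model. Its exons overlap those of Tomm40l on the opposite strand, and since no source used here states whether strand was used, reads of the 2 genes cannot be told apart. The related receptor gene Nr1i2 had at most 2 counts in a mouse and was not tested.

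Ephx1, the microsomal epoxide hydrolase, differed between Jag and control mice by -0.32 ± 0.20 at 15 h, -0.35 ± 0.20 at 5 d and -0.51 ± 0.20 at 7 d, and none of these passed the test (adjusted p = 0.625, 0.294 and 0.154). Under hormone, control mice were at 41.5, 32.2, 33.7, 31.6 and 26.8 CPM. Hormone-treated Jag mice were at 17.9, 19, 16.6, 20.5 and 16.4 CPM, all below the control mice, a difference of -0.88 ± 0.20 that is given as a description. Hormone gave -0.40 ± 0.20 in control mice and -0.76 ± 0.20 in Jag mice, the latter without overlap. The exons of Ephx1 overlap those of Gm36961 on the same strand.

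Pon1 was set apart by its low level with hormone. In control mice at 7 d it was at 35.6, 96.6, 10.5, 66.2 and 12.7 CPM without hormone. With hormone, control mice were at 4.29, 2.35, 4.56, 1.63 and 3.81 CPM. The 2 groups did not overlap and the difference was -3.73 ± 0.55. Jag mice were at 16.5, 98.4, 279, 87.7 and 95.4 CPM without hormone. With hormone, they were at 13.1, 8.41, 9.10, 8.58 and 12.2 CPM, again with no overlap, at -3.49 ± 0.54. The interaction was 0.24 ± 0.70, and with the brown adipocyte score in the model the differences were -2.67 in control and -2.78 in Jag mice.

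The 2 hormone-treated groups of Pon1 did not overlap either: every Jag mouse was above every control mouse, a difference of 1.62 ± 0.52. In antibody comparisons without hormone, Pon1 differed by 1.18 ± 0.50 at 15 h, 1.29 ± 0.50 at 5 d and 1.38 ± 0.50 at 7 d and did not pass the test at any time (adjusted p = 0.278, 0.103 and 0.124). At 15 h, Jag mice were at 53.4 to 105 CPM and control mice at 20.6 to 54.7 CPM. Its neighbours in the paraoxonase family were not called in any of the 11 comparisons: with hormone in control mice Pon2 differed by -0.14 ± 0.16 (adjusted p = 0.497) and Pon3 by -0.45 ± 0.23 (adjusted p = 0.114).

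Gstt1, a theta-class glutathione transferase, differed with hormone by -1.55 ± 0.30 in control mice and -1.41 ± 0.30 in Jag mice, with no overlap of groups in either. In control mice at 7 d it was at 16.9 to 57.5 CPM without hormone and 7.18 to 15.8 CPM with it. Jag mice were at 30.4 to 56.9 CPM without and 13.6 to 21.5 CPM with hormone. Antibody differences without hormone were 0.03 ± 0.30, 0.26 ± 0.30 and 0.41 ± 0.30 (adjusted p = 0.994, 0.640 and 0.436 at 15 h, 5 d and 7 d).

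Hpd was the member with the fewest counts. Control mice at 7 d were at 2.08, 7.55, 5.53, 6.33 and 1.91 CPM, and with hormone at 1.51, 1.12, 0.780, 0.793 and 1.10 CPM. Jag mice at 7 d were at 6.07, 10.2, 10.0, 14.9 and 10.3 CPM, and with hormone at 10.2, 5.87, 10.4, 2.97 and 10.6 CPM. Hormone-treated control mice were thus all below hormone-treated Jag mice, by 2.91 ± 0.55.

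Hormone against none gave -2.12 ± 0.54 for Hpd in control mice, without overlap, and -0.36 ± 0.50 in Jag mice, with overlap, and the interaction was 1.76 ± 0.73. With the brown adipocyte score in the model, these were -0.37 and 0.65. Without hormone the antibody difference was 1.75 ± 0.56, 1.04 ± 0.52 and 1.15 ± 0.51 at 15 h, 5 d and 7 d (adjusted p = 0.108, 0.221 and 0.200). DESeq2 called the difference at 15 h (1.77, adjusted p = 0.0284). The difference at 7 d was called with the brown adipocyte score in the model (1.70, adjusted p = 0.0164) and by limma on log2(FPKM + 1) (0.44, adjusted p = 0.0231). In control 15 h mouse 2, Hpd had 0 of 17686584 counts, which allows up to 0.170 CPM (3 counts, counting error only). Of the other tyrosine breakdown genes, Tat and Hgd did not pass the filter, and Fah, tested and named after its values were seen, fell with hormone in control mice by 0.63 ± 0.20 (adjusted p = 0.0108).

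Read over the 8 genes, hormone gave a lower level for 6 in control mice and 7 in Jag mice, with medians of -0.79 and -0.56 against 0.04 and -0.04 over all genes. Groups did not overlap for 4 genes in control mice (Pon1, Hpd, Gstt1, Nr1i3), where groups of 29.8% of all tested genes did not overlap and 20.3% were called higher and 22.9% lower. They did not overlap for 3 in Jag mice (Pon1, Gstt1, Ephx1), where 12.0% did not overlap and 4.29% were called higher and 5.21% lower. Under hormone the antibody groups did not overlap for 4 genes (Cyp2b10, Hpd and Pon1 higher in Jag mice, Ephx1 lower), beside 6.59% of all genes that did not overlap, 0.697% called higher and 0.439% lower, and 0.00586% of genes were called for the interaction. Since these contrasts chose the genes, nothing is read from the counts. With hormone, in control mice, the brown adipocyte score was lower by 1.12 and the myeloid score higher by 1.71 (each exact permutation p = 0.00794, adjusted p = 0.0572). The part of myeloid cells in these differences was not tested. In Jag mice the liver score was -1.5 with and -2.15 without hormone, with the same p values. The myeloid score there was higher by 1.40, the endothelial score higher by 0.58 and the brown adipocyte score different by -0.65 (exact permutation p = 0.0159, 0.0317 and 0.0317, adjusted p = 0.0952, 0.127 and 0.127).

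**Figure D4:**
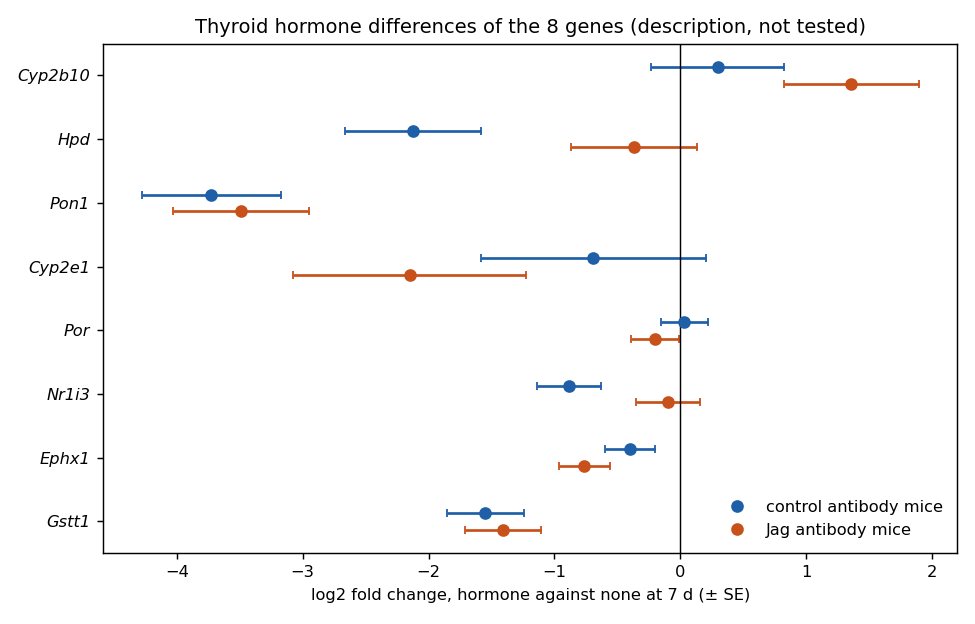
Log2 fold change (hormone against none at 7 d) with SE for the 8 genes in control (blue) and Jag (orange) mice, not tested because the genes were chosen on it. Pon1 lies at -3.73 and -3.49, and Cyp2b10 at 0.30 and 1.36.

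Time without hormone, 7 d against 15 h after the injection, was a comparison that the choice did not use, although it shares the 7 d mice with the hormone contrasts. In control mice 4 of 8 genes rose and 0 fell: Hpd by 2.93 ± 0.57, Cyp2b10 by 2.33 ± 0.56, Ephx1 by 1.21 ± 0.20 and Nr1i3 by 0.79 ± 0.26 (edgeR, adjusted p = 0.000139, 0.00109, 3.28e-05 and 0.0117). Of all genes, 21.6% were called higher and 23.5% lower in that comparison. In Jag mice 5 of 8 rose and 0 fell: Hpd by 2.33 ± 0.53, Cyp2b10 by 1.97 ± 0.55, Ephx1 by 1.01 ± 0.20, Gstt1 by 0.84 ± 0.30 and Por by 0.76 ± 0.19 (adjusted p = 0.00359, 0.0130, 0.00130, 0.0465 and 0.00681). Of all genes, 10.4% were called higher there and 7.93% lower. All 8 fold changes were above 0 in both, with medians of 0.63 and 0.92 against -0.06 and 0.04 over all genes.

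Cyp2b10, Hpd and Ephx1 thus rose with time under both antibodies, and Pon1 (0.45 ± 0.49 and 0.66 ± 0.49) and Cyp2e1 (0.26 ± 0.89 and 1.85 ± 0.92) did not pass the test in either. Of the 5 liver markers tested, 3 were also called higher with time in control mice (Apoa2 2.33, Apoa1 3.66 and Ttr 6.01) and 0 in Jag mice. The part of liver RNA was not tested. Of the 5 mice high in these markers, only control 7 d mouse 5 was in a time comparison. Without the 5 mice no call of the 8 genes with time was lost, but the Jag comparison kept all its mice, so nothing is read from this. Without control 15 h mice 2 and 3, the differences in control mice were 2.37 for Hpd, 1.80 for Cyp2b10 and 1.64 for Ephx1, all called, and 0.48 for Nr1i3 (adjusted p = 0.189). Nr1i3 also lost its call without control 7 d mouse 4 (0.58, adjusted p = 0.0753). The call of Gstt1 in Jag mice was lost without any of Jag 15 h mice 6, 8, 9 and 10 and Jag 7 d mice 7, 8, 9 and 10 (adjusted p from 0.0570 to 0.102). With the brown adipocyte score in the model, 1 of the 4 genes, Ephx1, was called in control mice (1.53, adjusted p = 0.00256), while Cyp2b10 was at 0.65, Hpd at 1.05 and Nr1i3 at -0.13.

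The other 76 tested genes of xenobiotic metabolism show where the 8 sit in the wider pathway. With the Jag antibodies, 2 of 76 were higher and 0 lower at 15 h (2.63% and 0%), beside 0.234% and 0.902% of all tested genes. At 5 d, 5 were higher and 5 lower (6.58% each), beside 2.09% and 5.93% of all genes. At 7 d, 4 were higher and 4 lower (5.26% each), beside 1.21% and 1.29%. At 15 h the P450 Cyp4b1 differed by 1.5 ± 0.36 and the epoxide hydrolase Ephx2 by 0.89 ± 0.17 (edgeR, adjusted p = 0.0399 and 0.0193), and neither was called without control 15 h mice 2 and 3. At 5 d the named genes were Fmo2, a flavin monooxygenase (1.09 ± 0.34), Cyp2u1 (0.92 ± 0.25), the aldehyde dehydrogenase Aldh1a1 (-3.19 ± 0.91) and the glutathione transferase Gsta3 (-2.92 ± 0.73), and 0 of 76 were called with the muscle score in the model. That score did not overlap between the antibody groups at 5 d, so muscle and antibody cannot be told apart there. At 7 d the named genes were Cyp1b1 (1.31 ± 0.35), Fmo2 (1.27 ± 0.34) and Aldh1a7 (-1.06 ± 0.28). Under hormone 6 were higher and 1 lower (7.89% and 1.32%), beside 0.697% and 0.439% of all genes. Fmo2 at 1.67 ± 0.34 (edgeR, adjusted p = 0.00680), the sulfotransferase Sult1a1 at 1.40 ± 0.31 and Cyb5r3 at -0.58 ± 0.15 were named. Of 23 other genes listed as targets of CAR or the Nr1i2 receptor, 10 were tested. With the Jag antibodies 0 of these 10 were higher at 15 h, 5 d, 7 d or under hormone. At 5 d 2 were lower (20%, beside 5.93% of all genes) and at 7 d 1 (10%, beside 1.29%), Aldh1a1 and Aldh1a7 among them. At 15 h and under hormone 0 were lower. Of the calls named here, that of Fmo2 under hormone held with each mouse left out, and that of Gsta3 was lost without control 5 d mouse 5 alone. The others were each lost without any 1 of 3 to 7 mice. Without the 5 mice high in liver markers, Fmo2 was not called at 5 d, at 7 d or under hormone (adjusted p = 0.103, 0.0756 and 0.0567), nor were Cyp4b1 at 15 h (adjusted p = 0.0690), Cyp1b1 and Aldh1a7 at 7 d (adjusted p = 0.0758 and 0.0520) or Cyb5r3 under hormone (-0.44, adjusted p = 0.211). None of these 5 mice was at 15 h, so for Cyp4b1 the mice compared all stayed in and only the fit over all genes changed. At 5 d only control mouse 2, and at 7 d without hormone only control mouse 5, left the comparison. The counts at 15 h, 5 d, 7 d and 7 d with hormone ranged over 0 to 7, 2 to 18, 2 to 9 and 1 to 7 when single mice were left out. The mice that moved them by over 1.5 times were control 1, 2, 3, 4 and Jag 7, 8, 10 at 15 h, control 1, 3, 5 and Jag 6, 8, 9, 10 at 5 d, control 2, 4, 5 and Jag 6, 10 at 7 d, and control 2, 3, 4, 5 and Jag 6, 8, 10 with hormone.

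With hormone, 27 of 76 genes fell and 8 rose in control mice (35.5% and 10.5%), beside 22.9% and 20.3% of all tested genes. In Jag mice 9 fell and 4 rose (11.8% and 5.26%), beside 5.21% and 4.29% of all genes. In control mice, of the conjugation and glutathione genes (phase II), 14 of 26 were lower and 1 higher, with a median of -0.94. These are 53.8% and 3.85%, beside the 22.9% and 20.3% of all genes. Mgst2, a membrane glutathione transferase, fell by 1.94 ± 0.37 in control mice and 1.69 ± 0.37 in Jag mice (adjusted p = 0.000129 and 0.00342). The nicotinamide methyltransferase Nnmt fell by 1.93 ± 0.39 in both. The transporter gene Abcc3 rose by 2.92 ± 0.52 and 2.15 ± 0.50 (adjusted p = 7.02e-05 and 0.00506), and in Jag mice Aldh1a7 rose by 1.27 ± 0.28. No gene of the 76 was called for the antibody by hormone interaction by edgeR or DESeq2, where edgeR called 0.00586% of all genes. Of the 76, 11 had an unadjusted p under 0.05 in edgeR. With the brown adipocyte score in the model, 21 rather than 35 genes were called with hormone in control mice.

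Between 15 h and 7 d, 32 of 76 genes rose and 11 fell in control mice (42.1% and 14.5%), beside 21.6% and 23.5% of all tested genes. In Jag mice 21 rose and 2 fell (27.6% and 2.63%), beside 10.4% and 7.93% of all genes. Cyp1a1 rose by 2.84 ± 0.69 and Mgst2 by 1.97 ± 0.37 in control mice, where the glutathione reductase gene Gsr fell by 2.29 ± 0.47 and Abcc3 by 2.07 ± 0.51. In Jag mice Cyp2f2 rose by 2.49 ± 0.78 and Gstt2 by 1.72 ± 0.27, and the monoamine oxidase Maoa fell by 0.65 ± 0.22. Without control 15 h mice 2 and 3, Gsr was at -0.09 and Abcc3 at -0.92 (adjusted p = 0.832 and 0.183). In a model with the brown adipocyte score, Cyp1a1 was at 0.84 (adjusted p = 0.426), Gsr at 0.42, Abcc3 at 0.15 and Maoa at -0.52 (adjusted p = 0.0702). The call of Cyp2f2 was lost without Jag 15 h mouse 7, 8 or 10 or Jag 7 d mouse 10, and that of Maoa without Jag 15 h mouse 8 or 10 or Jag 7 d mouse 6, 7, 8 or 10. In control mice 28 genes were called without control 15 h mice 2 and 3, and 10 with the brown adipocyte score in the model. For the antibody difference between times, edgeR called 0 of 76 at either time. Of all genes it called 1.31% for 7 d and 0.0995% for 5 d against 15 h. Among the 76, 19 and 13 had an unadjusted p under 0.05 for 7 d and 5 d against 15 h, and DESeq2 called 4 in each.

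**Figure D5:**
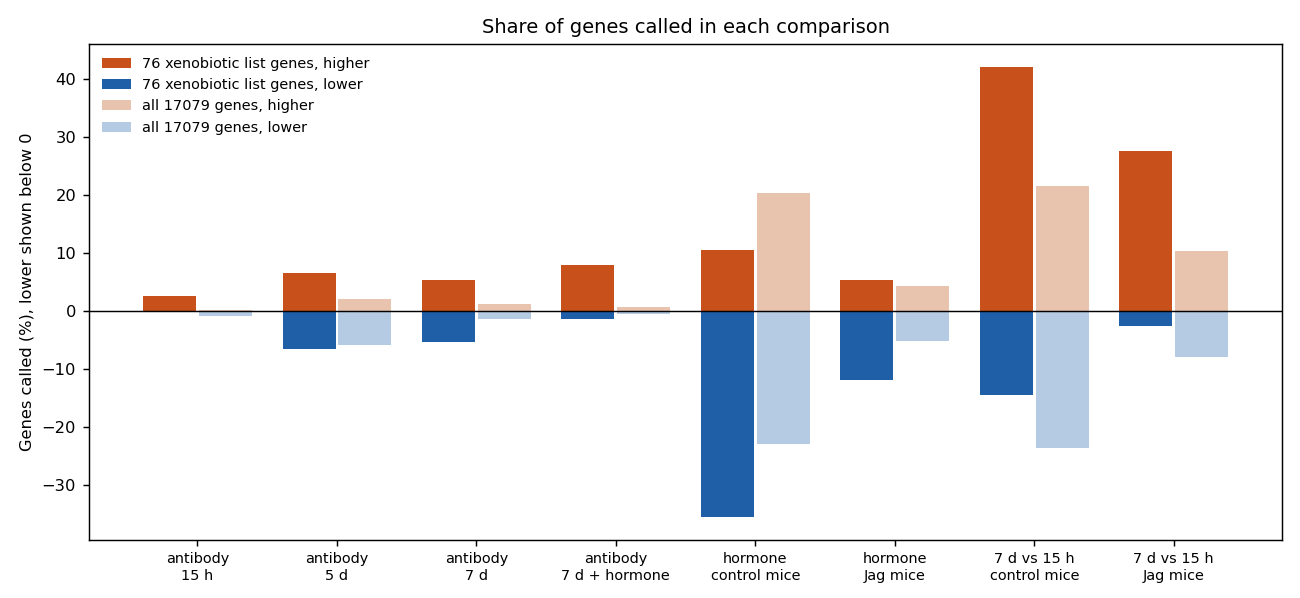
Percent of the 76 list genes (strong colours) and of all 17079 tested genes (pale) called higher (above 0) or lower (below 0) in 8 comparisons. With hormone in control mice, 27 list genes were lower and 8 higher (35.5% and 10.5%), beside 22.9% and 20.3% of all genes.

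Over the 40 mice, Cyp2b10 and Hpd moved together (Pearson r = 0.81, and 0.56 after the group means were removed), as did Pon1 and Gstt1 (0.82 and 0.60), while Cyp2b10 and Pon1 did not (-0.01 and 0.17). These are descriptions over libraries that share groups and marker content. Cyp2b10 and Hpd were both chosen for a difference between antibodies under hormone, so part of their correlation over the 40 mice follows from the choice. Within groups the brown adipocyte score correlated with Hpd (r = 0.72), Nr1i3 (0.72) and Cyp2b10 (0.63), and the liver score with Cyp2e1 (-0.35), Nr1i3 (0.34) and Gstt1 (0.22), while the liver score was at -0.005 for Cyp2b10, 0.06 for Hpd, 0.01 for Pon1, 0.01 for Ephx1 and 0.11 for Por. Among 12132 genes, those most like Cyp2b10 by r over the 40 mice, group differences included, were Prodh (proline dehydrogenase, r = 0.94), Fmo2 (0.89) and Myrip (0.88). For Hpd they were Dhrs11 (0.94), Gstm7 (0.93) and Kyat3 (0.93), and for Pon1 Slc35a1 (0.87), Sptssa (0.86) and Arl4a (0.85).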

How the data were processed

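Brown adipose RNA of 40 mice was read as single-end 50 bp reads. The authors deposited whole-number counts per Ensembl gene and an FPKM table. Per the submitters' processing notes, GSNAP and limma were used. The build, counter and strand setting are not given in the sources used here. Each deposited FPKM equals the count over a library factor and a gene length. For Cyp2b10, Pon1, Cyp2e1, Nr1i3 and Gstt1 that length kept the same ratio to the genomic span, introns included, and not to the exon length. Adding 1 to low FPKM shrinks differences, so those on log2(FPKM + 1) are not on the scale of the edgeR fold changes.

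The 8 genes and all lists were chosen with earlier results of these data known. edgeR 4.0.16 (TMM, robust quasi-likelihood F test, 1 mean per group over 40 libraries, Benjamini-Hochberg at 0.05) tested 17079 genes that passed the count filter in 11 comparisons. Fold changes are log2 with SE. Levels are CPM, or log2 CPM with a prior count of 2. Marker scores are mean log2 CPM and were compared by exact permutation. Alternatives were DESeq2 1.42.0, RLE factors, no filter, length and GC offsets, limma 3.58.1 on log2(FPKM + 1), muscle score, only the groups compared, a replicate block and each mouse left out. The brown adipocyte score, and leaving out control 15 h mice 2 and 3 or 5 mice with high liver markers, were added after seeing the data. Named list genes had up to 2 per direction, the largest changes among called genes with a mean log2 CPM of at least 1, besides the Cyp2b paralogs, Pon2, Pon3 and Nr1i2. Some results are not reported here. The model was tested on simulated data. No 2 libraries of a group agreed within sampling noise. The labels give no batch, and p-values measure the spread between these libraries.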

Additional observations from a re-analysis of the deposited data

Results flagged for a closer look

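Of 64 groups of 5 mice examined for the 8 genes, 2 held a mouse far from the other 4, where chance gives about 3.2. In control mice at 5 d, mouse 3 had 3.44 log2 CPM of Cyp2b10. In control mice at 7 d, mouse 4 had 3.93 log2 CPM of Nr1i3. Without that mouse the time difference of Nr1i3 lost its call, as the report gives.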

How the results depend on the processing

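Cyp2b10 at 7 d was called under every alternative run (1.92 to 3.01). Among the other settings, these values of the 8 genes changed a call or a sign, and the cause was not tested. Limma values are on log2(FPKM + 1), so their sizes are not on the scale of the others. Calls were gained for Hpd at 15 h (DESeq2, 1.77) and 7 d (limma 0.44, brown adipocyte score 1.70) and for Cyp2e1 at 7 d (DESeq2, 2.96). At 15 h, Cyp2b10 was not called by limma (1.08) or in a fit of only the groups compared (2.94). At 5 d it was not called by limma (1.03), with the muscle score (1.94), with no filter (1.80) or in only the groups compared (1.77). Nr1i3 with time in control mice was not called in only the groups compared (0.77). Gstt1 with time in Jag mice was not called with RLE factors (0.80), length and GC offsets (0.50), limma (0.56), no filter (0.87), the replicate block (0.84) or block and offsets (0.50), and Por was not called with the offsets (0.44) or block and offsets (0.42). Near 0, Nr1i3 at 5 d took the other sign by DESeq2 (-0.023), RLE factors (-0.025), limma (-0.0015), muscle score (-0.063) and only the groups compared (-0.017), Por at 5 d with the offsets (0.26), and the Cyp2b10 antibody difference at 7 d against 15 h by limma (0.84).

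With the brown adipocyte score, values were Cyp2b10 1.73 at 15 h, 1.36 at 5 d and 0.65 with time in control mice, Hpd 1.05 and Nr1i3 -0.13 with time in control mice, Gstt1 0.76 with time in Jag mice, and, changing sign without a call, Cyp2b10 1.29 for 7 d against 15 h, Cyp2e1 -0.029 at 5 d and -0.13 with time in control mice, Gstt1 -0.12 and Nr1i3 -0.54 at 15 h, Nr1i3 -0.16 at 5 d and -0.012 with time in Jag mice, Pon1 -0.80, Abcc3 0.15 and Gsr 0.42 with time in control mice. Without control 15 h mice 2 and 3 they were Cyp2b10 2.40 at 15 h and 0.16 for 7 d against 15 h, Nr1i3 0.48 with time, and Cyp2e1 -0.44 with time in control mice, and at 15 h Ephx1 0.12, Gstt1 -0.16, Nr1i3 -0.31 and Por 0.12. Without the mice high in liver markers, Cyp2e1 at 5 d was -0.046.

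List genes called numbered, at 15 h, 2 in the report against 6 (DESeq2), 1 (limma, no filter, liver-high mice out) and 0 (brown score, control mice 2 and 3 out, only the groups compared). At 5 d they numbered 10 against 5 (limma), 0 (muscle score), 4 (no filter) and 3 (only the groups compared). At 7 d they numbered 8 against 13 (DESeq2, brown score), 5 (liver-high mice out, no filter) and 1 (only the groups compared). With hormone, the antibody count was 7 against 11 (brown score, limma) and 14 (only the groups compared). The hormone count was 13 against 20 in Jag mice (only the groups compared) and 35 against 21 in control mice (brown score). The time count in control mice was 43 against 10 (brown score) and 28 (control mice 2 and 3 out). The antibody difference at 5 d against 15 h gave 0 against 4 (DESeq2), 3 (brown score), 1 (offsets) and 2 (liver-high mice out), and at 7 d against 15 h 0 against 4 (DESeq2) and 1 (muscle score).

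With single mice left out, values ranged for Cyp2b10 from 2.26 to 3.37 at 15 h, 1.56 to 2.05 at 5 d and -0.81 to 0.31 for 7 d against 15 h, for Cyp2e1 from -0.048 to 0.45 at 5 d and -0.13 to 0.68 with time in control mice, for Gstt1 from -0.11 to 0.15 at 15 h and 0.73 to 0.98 with time in Jag mice, for Nr1i3 from -0.14 to 0.17 at 15 h, -0.091 to 0.23 at 5 d and 0.58 to 0.96 with time in control mice, and for Pon1 from -0.021 to 0.75 with time in control mice. List counts ranged from 0 to 7, 2 to 18, 2 to 9 and 1 to 7 for the antibody at 15 h, 5 d, 7 d and 7 d with hormone, and from 0 to 2 and 0 to 6 for the antibody differences at 5 d and 7 d.

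Counts over all genes moved more: at 15 h 194 genes were called against 0 to 577 under the alternatives, at 5 d 1369 against 89 to 2354, at 7 d 427 against 53 to 858, and with hormone 194 against 117 to 694. The labels do not say what a replicate number marks. Deviations of same-numbered mice correlated at -0.34 to 0.73 (means 0.18, 0.16, 0.19 and 0.10 over 4 group pairs), and a mouse correlated best with its own number in 2, 1, 2 and 3 of 5, so pairing was not assumed. With the replicate block, 51 rather than 17 genes were called for the antibody difference at 5 d against 15 h and 35 rather than 223 at 7 d, and the list counts were 35 and 12 with hormone in control and Jag mice, 43 and 22 with time, and 0 for the interaction and both differences. Hpd, with 0 to 272 counts a mouse, is limited by depth.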
